A study of Mus musculus with 6 samples.

Results

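Small nucleolar RNAs and small Cajal body RNAs were examined in the ventral midbrain, where the midbrain dopamine neurons lie. The genes were taken as every symbol starting with Snord, Snora or Scarna and a digit that had a probe set of its own on an Affymetrix mouse gene array. Such probe sets numbered 81 and represented 78 genes of 22180 genes with a probe set of their own, and each gene was read by its brightest probe set. Of the 78, 47 were box C/D genes (Snord), 26 were box H/ACA genes (Snora) and 5 were Cajal body RNA genes (Scarna). RNA came from male mice 2 months of age, and of 6 arrays 3 were labelled Bach1 knockout and 3 wild type. The labels name no strain, and they do not describe the knockout allele or state whether each array was a separate animal, so p-values may reflect technical spread alone. Every difference is the mean log2 level of the knockout-labelled arrays less that of the wild-type arrays, so a negative value is a lower level in the former.

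Box C/D RNAs carry short antisense stretches that guide ribose methylation of ribosomal RNA, and box H/ACA RNAs guide the conversion of uridine to pseudouridine. Cajal body RNAs do the same for the small nuclear RNAs of the spliceosome. Most are cut out of introns of a host gene, many of which encode ribosomal proteins or translation factors, while others are non-coding transcripts whose introns are their main product. BACH1 is a repressor of heme and antioxidant genes. The comparison asked which transcripts of this region differed with its knockout.

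The labels and the tissue were checked first. The Bach1 probe set read 7.66 ± 0.058 on the knockout-labelled and 7.54 ± 0.068 on the wild-type arrays (SD, n = 3), so it was not lower in the former, and every direction below rests on the labels. Whether that probe set lies in the deleted stretch is not known here, and one outside it checks nothing. Hmox1, the inducible heme oxygenase that BACH1 represses, was 1.95 log2 units higher (8.38 ± 0.15 against 6.43 ± 0.098, SD, n = 3; limma, adjusted p = 0.0181). With any 1 array left out it remained higher by 1.88 to 2.03, with an adjusted p of 0.134 to 0.233, and with the replicate number as a block the adjusted p was 0.544. All 10 dopamine neuron markers listed had a probe set, with levels from 6.29 for Pitx3 to 11.96 for the dopamine transporter gene Slc6a3. Of these markers 9 of 10 averaged higher in the knockout-labelled group, with a median difference of 0.18. Their median deviation from the mean of all arrays was 0.14, -0.10 and 0.24 on the knockout-labelled arrays. On the wild-type arrays it was -0.028, -0.051 and -0.19, so the groups overlapped through knockout-labelled replicate 2. Aldh1a1, an aldehyde dehydrogenase of dopamine neurons, was at 0.26 with the groups apart (limma, adjusted p = 0.564), and no dopamine marker passed; their part in the values of the small RNAs was not tested. A level of one probe set also depends on its probes, so levels are described within a class and are not amounts of RNA. RNA was extracted with Trizol and then cleaned up with a Qiagen kit, per the labels' protocols. Clean-up on silica columns can lose short RNA, the part of which in these values was not tested, and a probe set of an intronic RNA can also read its unspliced host, so the values are signals of these probe sets and not counts of mature RNA.

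Members that share a host also share that host's start site, so the start regions of 4 hosts are shown here. Snhg12 holds Snora16a, Snora44, Snora61 and Snord99, 2410006H16Rik holds Snord49a, Snord49b and Snord65, Snhg3 holds Snora73a and Snora73b, and Gnl3 holds Snord19 and Snord69. Each line gives 40 bases before and 30 bases from the annotated start onward, from RefSeq (GRCm38.p6), 5′ to 3′ on the gene's strand. Capitals mark an unbroken run of at least 5 pyrimidines (C or T) that begins with C within 10 bases of the start, the position where many translation-linked genes carry a terminal oligopyrimidine tract.
Snhg12, chr4:132308638-132308707, plus strand: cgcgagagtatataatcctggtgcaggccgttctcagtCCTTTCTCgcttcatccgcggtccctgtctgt
2410006H16Rik, chr11:62602837-62602906, plus strand: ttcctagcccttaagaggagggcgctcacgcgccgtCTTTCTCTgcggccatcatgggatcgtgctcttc
Snhg3, chr4:132353657-132353726, minus strand: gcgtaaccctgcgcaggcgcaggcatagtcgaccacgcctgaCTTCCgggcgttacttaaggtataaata
Gnl3, chr14:31019102-31019171, minus strand: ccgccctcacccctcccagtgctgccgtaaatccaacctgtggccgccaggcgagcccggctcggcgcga
The runs have 8 bases in Snhg12 and 2410006H16Rik and 5 bases in Snhg3, and no run meets this rule in Gnl3. Other hosts of several members, 2410002F23Rik, Kansl2, Ncl, Nop58, Rps3a1 and Wdr43, had no such run and are not shown. For Rpl3, which also holds 2 members, no start region is given. The hosts shown thus do not give the share of hosts with a run. Of 46 hosts with a start region in the table, 19 had such a run (41.3%), against 34.4% of 27025 genes, so the run is common and does not set the hosts apart. RefSeq starts are not mapped cap sites, and the sequences of the small RNAs themselves were not used here.

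Levels varied widely within each class. Box C/D genes ran from 2.75 for Snord72 to 11.78 for Snord82, with a median of 6.82, and box H/ACA genes ran from 4.13 for Snora2b to 11.94 for Snora33, with a median of 6.71. Cajal body RNA genes ran from 4.60 for Scarna8 to 10.27 for Scarna17, with a median of 9.29. At or above the 40th percentile of all probe set means (5.07) lay 34 of 47 box C/D, 21 of 26 box H/ACA and 4 of 5 Cajal body RNA genes, against 71.2% of all genes. Probe sets in the top decile of level held 12 of the 78.

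The 4 brightest box C/D genes were Snord82, Snord89, Snord49b and Snord73b, and the groups overlapped in the first 3. Snord82, encoded in an intron of the nucleolin gene Ncl, was at 11.77, 11.77 and 11.85 on the knockout-labelled arrays and at 11.70, 11.71 and 11.87 on the wild-type arrays. The groups overlapped, and the difference of 0.035 had a 95% interval of -0.17 to 0.24. Snord89, which lies in no annotated host, differed by 0.021 (-0.24 to 0.28) and Snord49b by 0.048 (-0.30 to 0.39). Snord73b, from an intron of the ribosomal protein gene Rps3a1, was the one of the 4 whose groups did not overlap. It was at 10.37, 10.21 and 10.35 on the knockout-labelled and at 10.48, 10.63 and 10.91 on the wild-type arrays, with wild-type replicate 3 the highest. Its difference of -0.37 (SE 0.13, 95% interval -0.68 to -0.05) did not pass over all probe sets (limma, adjusted p = 0.567).

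The groups overlapped for the 4 brightest box H/ACA genes and the 4 brightest Cajal body genes. Snora33, from an intron of Rps12, was at 11.99, 11.83 and 11.90 against 11.71, 12.09 and 12.12, and Snora21, from Rpl23, differed by -0.13 (95% interval -0.47 to 0.21). Snora7a, from Rpl32, had the smallest spread of the class, at 9.53, 9.37 and 9.41 against 9.52, 9.47 and 9.51, and its difference of -0.065 had an interval of -0.26 to 0.13. Snora23, from Ipo7, differed by -0.16 (95% interval -0.40 to 0.08).
Scarna17, which guides modification of minor and major spliceosomal RNAs, was at 10.23, 10.23 and 10.28 against 10.01, 10.53 and 10.35. Scarna2, a guide for the U2 RNA that lies in no annotated host, was at 9.22, 9.30 and 9.37 against 9.09, 9.41 and 9.34, so its difference was 0.019 (-0.25 to 0.28). Scarna6, from Atg16l1, differed by 0.076 (-0.47 to 0.62), and Scarna10, from Ncapd2, by -0.0094 (-0.29 to 0.27). Wild-type replicate 1 was the lowest of all 6 arrays for Scarna17, Scarna2 and Scarna6, and without it Scarna6 was at -0.17.

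Over all 78 genes, 0 passed an adjusted p of 0.05 (limma with Benjamini-Hochberg adjustment over 41345 probe sets), and the smallest adjusted p was 0.512. Over all probe sets 0.00726% passed. At an unadjusted p under 0.05 there were 11 genes, 1 higher and 10 lower on the knockout-labelled arrays, and none passed the adjusted threshold. Over all probe sets 8.27% had such a p, 4.97% in the higher and 3.3% in the lower direction, and over the 22180 genes 3.8% and 2.71%. The groups did not overlap for 13 of the 78 genes, against 14.3% of all probe sets. The exact 2-sided permutation test of a single gene cannot go below 0.1 with 3 against 3 arrays, and 13 genes reached that value. Half-widths of the 95% intervals had a median of 0.353 over the 78 genes, so differences smaller than this were mostly not resolved.

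**Figure D1:**
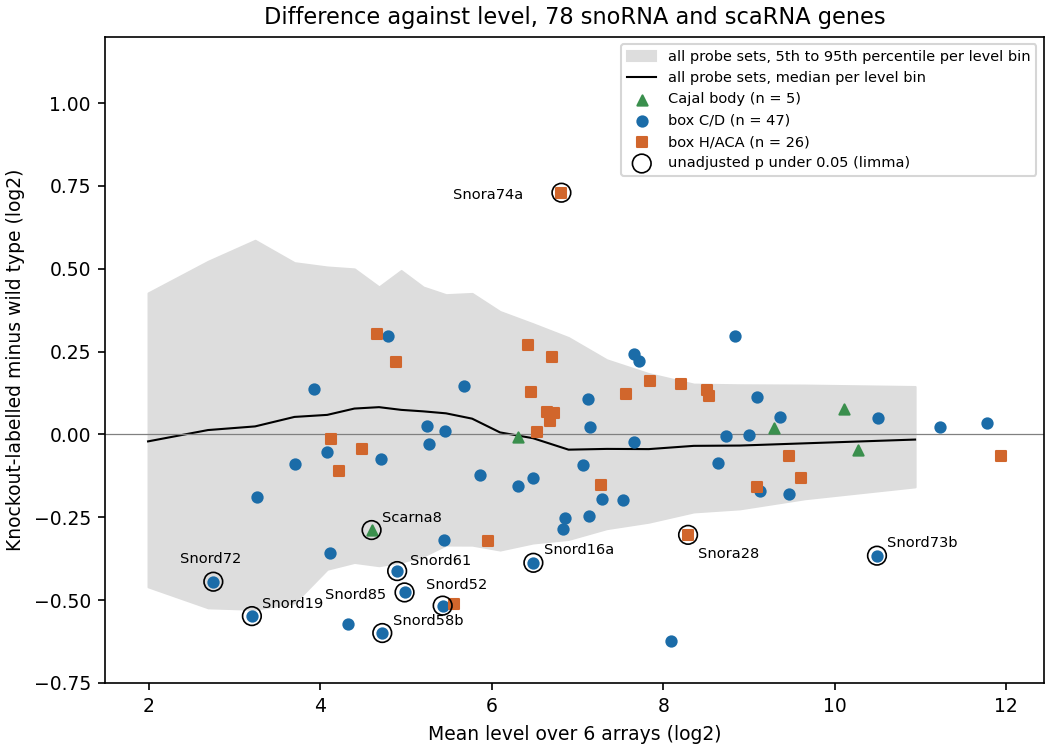
Difference between groups (log2) against mean level over 6 arrays (log2) for the 78 genes, coloured by class. The grey band holds the 5th to 95th percentile and the line the median of all probe sets in 20 bins of level; rings mark the 11 genes at an unadjusted p under 0.05, of which 10 lie below 0 and Snora74a, at 0.73, lies above.

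Of 47 box C/D genes, 32 were lower on average in the knockout-labelled group and 15 higher, with a median difference of -0.091. Over all probe sets 49.9% had a lower mean, with a median of 0.0005, and over all genes the median was -0.0098. At an unadjusted p under 0.05 (limma) there were 8 box C/D genes lower (17.0%) and 0 higher, against 3.3% and 4.97% of all probe sets, and the smallest adjusted p of the class was 0.512. The groups did not overlap for 7 lower and 2 higher box C/D genes, where 6.86% and 7.4% of all probe sets did not overlap in these directions. The count of 8 fell to 5 without knockout-labelled replicate 2, 4 without knockout-labelled replicate 3, and 3 without wild-type replicate 2 or 3, and was 11 without both knockout-labelled replicate 2 and wild-type replicate 1.

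The dim box C/D genes made up much of this. Of 13 genes below the 40th percentile, 11 had a lower and 2 a higher mean, with a median of -0.36, while all dim probe sets had a median of 0.047. Among these 13 genes 5 were lower at an unadjusted p under 0.05 (limma), against 3.59% of all dim probe sets, and 0 passed after adjustment. Of the 34 brighter box C/D genes 21 (61.8%) had a lower mean, with a median of -0.058. All bright probe sets had a lower mean in 55.3%, with a median of -0.016. The bins of level that hold these 34 genes had a median of -0.034. On the array scale, the median deviation of the 13 dim genes from the mean of all arrays was -0.12, -0.18 and -0.10 on the knockout-labelled and -0.042, 0.35 and 0.29 on the wild-type arrays. Wild-type replicate 1 thus lay nearer to the knockout-labelled arrays than to the other wild-type arrays.

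Snord58b, from an intron of the ribosomal protein gene Rpl17, had the smallest unadjusted p of the class. It was at 4.23, 4.41 and 4.62 on the knockout-labelled and at 4.95, 5.10 and 5.03 on the wild-type arrays. All 3 knockout-labelled values lay below all wild-type values, and the difference was -0.60 (SE 0.12, 95% interval -0.89 to -0.31; limma, adjusted p = 0.512). Snord52, from the non-coding host 1110038B12Rik, was at 5.45, 4.95 and 5.10 against 5.52, 5.78 and 5.76. Its groups also did not overlap, but knockout-labelled replicate 1 and wild-type replicate 1 lay close together, and the difference was -0.52 (-0.89 to -0.14). Snord19, from the nucleolar GTPase gene Gnl3, was at 2.81, 3.11 and 2.86 against 3.33, 3.80 and 3.30, with a difference of -0.55 (-0.95 to -0.15). The 2 groups were apart, at a level where 12.1% of probe sets were dimmer.

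The other 5 box C/D genes at an unadjusted p under 0.05 were Snord16a, Snord61, Snord72, Snord85 and Snord73b. Snord16a, from Rpl4, was at 6.02, 6.43 and 6.43 against 6.59, 6.68 and 6.77, with no overlap and a difference of -0.39. Snord72, from Rpl37, was at 2.56, 2.56 and 2.47 against 2.57, 3.15 and 3.20. Wild-type replicates 2 and 3 were high, and wild-type replicate 1 lay just above the knockout-labelled arrays. Snord61, from Rbmx, and Snord85 overlapped through the same array, with differences of -0.41 and -0.48. In the other direction, Snord43 from Rpl3 was at 4.91, 5.06 and 4.85 against 4.75, 4.76 and 4.42 and Snord23 from Nop53 at 8.97, 9.004 and 8.96 against 8.80, 8.38 and 8.87. Neither pair of groups overlapped, with differences of 0.30 for each (limma, adjusted p = 0.606 and 0.629). Snord55 was at 0.24 with overlap.

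**Figure D2:**
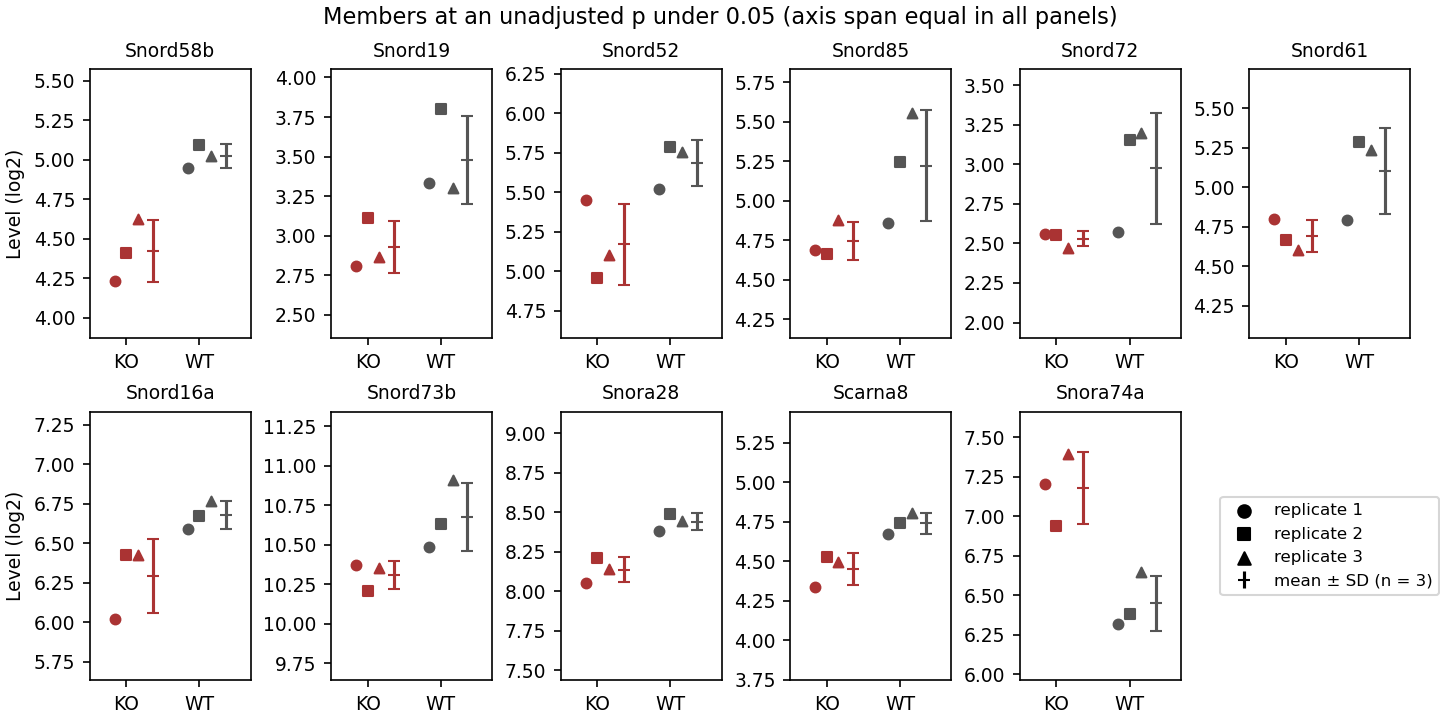
Log2 level on each array for the 11 genes at an unadjusted p under 0.05, with knockout-labelled (KO) and wild-type (WT) arrays side by side, replicates by symbol, and mean ± SD (n = 3) beside them; every panel spans the same height. The groups do not overlap in 9 panels, and in Snord61 and Snord85 wild-type replicate 1 lies among the knockout-labelled values.

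Snord13 and Snord111 had differences as large, with wide errors; they, and Snord118, Snora35, Snora73a and Snora73b below, were chosen for mention with their values known. Snord13, which is transcribed from a gene of its own and assists acetylation of ribosomal RNA, was at 8.26, 7.22 and 7.86 against 8.44, 8.55 and 8.22. Knockout-labelled replicate 2 was far below the rest, and the difference of -0.62 had a 95% interval of -1.26 to 0.02. Snord111, from Sf3b3, was at 3.70, 4.60 and 3.80 against 4.23, 4.95 and 4.64, which overlap, with a difference of -0.57 (-1.28 to 0.13). Snord118, the U8 RNA needed for maturation of the large ribosomal subunit, differed by -0.16 (-0.70 to 0.39).

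Box H/ACA genes showed no such lean. Higher means were found in 15 and lower means in 11 of 26, with a median of 0.052, and 1 gene in each direction had an unadjusted p under 0.05 (limma), against the 4.97% and 3.3% of all probe sets. Snora74a, the U19 RNA hosted by the non-coding gene Snhg4, was the gene with the largest difference of all 78. It was at 7.20, 6.94 and 7.39 on the knockout-labelled and at 6.32, 6.38 and 6.64 on the wild-type arrays. The groups were apart, with a difference of 0.73 (SE 0.15, 95% interval 0.36 to 1.09), 1.66-fold, that did not pass (limma, adjusted p = 0.512). Its host Snhg4 was at 7.74 ± 0.092 against 7.51 ± 0.073 (SD, n = 3), a difference of 0.24 (0.02 to 0.45) with the groups apart and an adjusted p of 0.58 (limma).

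Snora28, from the translation factor gene Eif5, was the box H/ACA gene with the smallest p among lower ones. It was at 8.05, 8.21 and 8.14 against 8.39, 8.49 and 8.44, tightly grouped on both sides, and the difference was -0.30 (SE 0.083, 95% interval -0.50 to -0.10; limma, adjusted p = 0.524). Snora69 from Rpl39 was at -0.32 and Snora15 from Cct6a at -0.51. Snora15 was at 5.69, 4.59 and 5.62 against 5.69, 5.81 and 5.93, so its groups were apart by a narrow margin and its mean difference came mostly from knockout-labelled replicate 2. Snora75 from Ncl and Snora61 from Snhg12 were at 0.30 and 0.27 with overlapping groups. Snora73a and Snora73b, RNAs with a role in cleavage of ribosomal precursor RNA, had differences of 0.16 and 0.15. Snora35, a brain RNA from an intron of the serotonin receptor gene Htr2c, was at 0.12 (-0.15 to 0.40).

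Among Cajal body RNA genes, Scarna8 had the smallest p. This guide for the U2 RNA was at 4.34, 4.53 and 4.50 on the knockout-labelled and at 4.68, 4.74 and 4.81 on the wild-type arrays. The groups did not overlap, and the difference of -0.29 (-0.51 to -0.07) did not pass (limma, adjusted p = 0.542). Its host, the spindle gene Haus6, was at -0.24. The other 4 Cajal body genes had differences from -0.048 to 0.076. The class median of -0.0094 became -0.17 without wild-type replicate 1 and 0.067 without wild-type replicate 2.

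The median spread between arrays of a group was larger than for probe sets of like level in every class, though not among dim box C/D genes. The within-group SD had a median of 0.199 for box C/D, 0.207 for box H/ACA and 0.138 for Cajal body genes, where the bins of level that hold these genes had medians of 0.137, 0.137 and 0.0847. It exceeded the median of its bin in 34 of 47, 20 of 26 and 3 of 5 genes, and the bin's 75th percentile in 26, 12 and 2. Bright genes showed this more than dim ones, with 47 of 59 genes above the bin median at or above the 40th percentile and 10 of 19 below it. The 13 dim box C/D genes had a median SD of 0.2288, against 0.2294 for their bins, with 6 genes above the bin median. Snord1b had the largest SD, 0.487, and was at 3.66, 3.71 and 3.62 against 2.98, 4.29 and 3.996. Its spread lay within the wild-type arrays. Snord71, from Ap1g1, had an SD of 0.452 at a mean of 9.005, with 8.53, 8.91 and 9.57 against 8.63, 9.05 and 9.35, and a difference of -0.0028. Snora16a was at 8.40, 8.49 and 8.90 against 8.20, 8.26 and 8.97, high on replicate 3 of each group, and Scarna6 was at 10.09, 10.09 and 10.25 against 9.58, 10.15 and 10.47. The tightest box C/D gene was Snord82, with an SD of 0.0755.

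**Figure D3:**
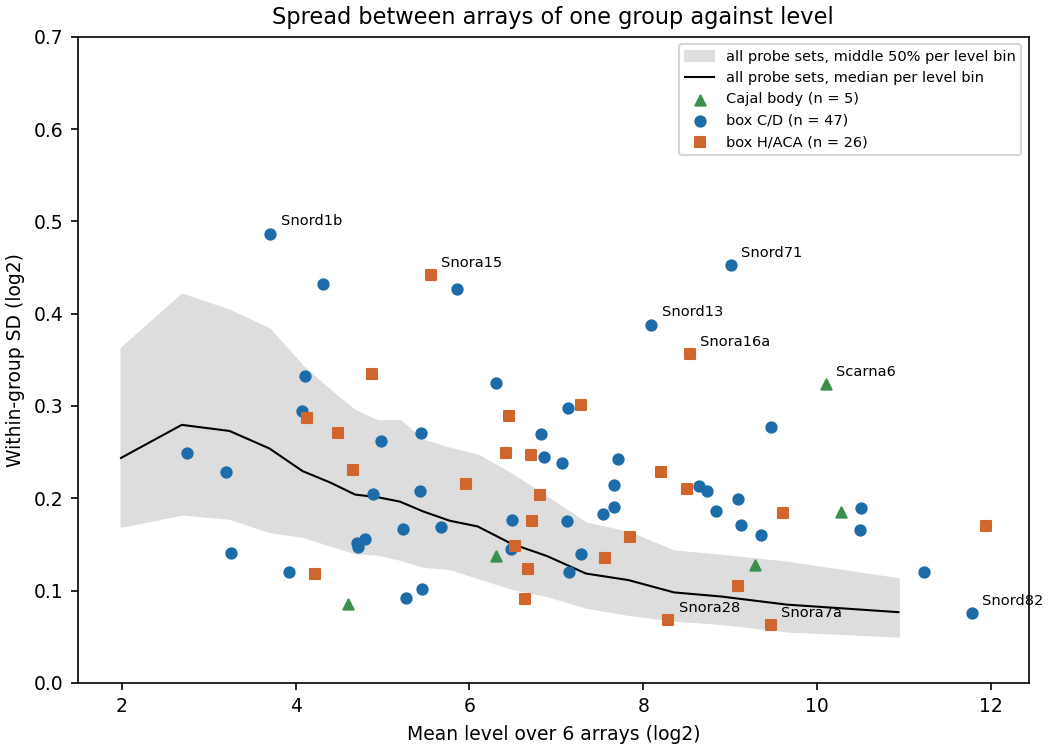
Within-group SD (log2, from the fit of 2 groups of 3 arrays) against mean level over 6 arrays (log2) for the 78 genes by class; the grey band is the middle 50% and the line the median of all probe sets in 20 bins of level. Of the 78 points 57 lie above the line, among them Snord71, Snord13, Snora16a and Scarna6 at bright levels.

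The arrays that were low for these genes were wild-type replicate 1 and knockout-labelled replicate 2. Wild-type replicate 1 gave the lowest value for 30 of the 78 genes and knockout-labelled replicate 2 for 22, while 25 and 18 had their highest on wild-type replicates 3 and 2. For box H/ACA genes wild-type replicate 1 was the lowest array in 14 of 26. The median deviation of box C/D genes was 0.034, -0.13 and -0.058 on the knockout-labelled and -0.077, 0.13 and 0.11 on the wild-type arrays. For box H/ACA genes it was 0.054, -0.062 and 0.019 against -0.14, 0.024 and 0.11, and for Cajal body genes -0.041, -0.042 and 0.080 against -0.20, 0.12 and 0.075. The groups overlapped in all 3 classes. Genes of other short RNAs were read beside them. The 472 miRNA genes were at 0.0028, 0.075 and -0.0024 against -0.031, -0.028 and -0.030, with no overlap and a median difference of 0.042. Their levels had a median of 4.44, and 37.9% lay at or above the 40th percentile. All dim probe sets had a median difference of 0.047, and the bins of level that hold the miRNA genes had a median of 0.024. The 4 spliceosomal RNA genes were at -0.13, 0.081 and 0.095 against -0.080, -0.032 and 0.057, and 6 genes of other short RNAs at 0.13, -0.060 and 0.20 against -0.025, -0.19 and -0.010, with overlap in both. The 6 genes also spread widely, with a median within-group SD of 0.218 against 0.081 for their bins of level. The SD exceeded the bin median in 5 of these 6, in 2 of the 4 spliceosomal RNA genes and in 266 of the 472 miRNA genes.

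The same arrays were low for markers of the meninges, the membranes around the brain. The median deviation of their 5 markers was 0.096, -0.36 and -0.0025 on the knockout-labelled and -0.41, 0.28 and 0.27 on the wild-type arrays, and 4 of the 5 averaged lower in the knockout-labelled group, with 0 at an unadjusted p under 0.05 (limma). The 2 genes of the striatum list with a probe set, Drd1 (mean level 5.13) and Drd2 (10.15), were at 0.052, -0.32 and 0.20 against -0.29, 0.21 and 0.15. Not every list had this pattern. The 3 thalamus markers were at 0.22, -0.0093 and 0.11 against 0.49, -0.29 and -0.37, so wild-type replicate 1 was their highest array. The 4 choroid plexus and ependyma markers were at -0.053, 0.040 and -0.032 against -0.41, 0.25 and -0.021, so knockout-labelled replicate 2 was not low. Markers of endothelial and mural cells were at -0.045, -0.16 and -0.0082 against 0.023, 0.096 and 0.015, and 5 of 5 had a lower mean. Markers of the hypothalamus, which borders the dissected region, were at -0.014, -0.11 and -0.84 against 0.044, 0.33 and 1.39, with 5 of 6 lower, and the 4 serotonin and hindbrain markers were at 0.19, 0.032 and 0.36 against -0.20, -0.044 and -0.28, with 4 of 4 higher. The groups did not overlap for these last 3 lists, as for the 13 dim box C/D genes. At an unadjusted p under 0.05 (limma), 1 of 5 endothelial and mural and 1 of 6 hypothalamus markers were lower. At that p 2 of 4 serotonin and hindbrain markers were higher, and no marker of the 3 lists passed after adjustment. Over all probe sets 3.3% were lower and 4.97% higher at that p. The serotonin and hindbrain markers were all dim, with mean levels from 4.12 to 4.91, and all dim probe sets had a median of 0.047. The part of any of these markers in the values of the small RNAs was not tested. In bulk tissue, fewer cells of a type and less RNA per cell cannot be told apart. Pan-neuronal markers differed little, with a median difference of 0.0075 over 6 genes.

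**Figure D4:**
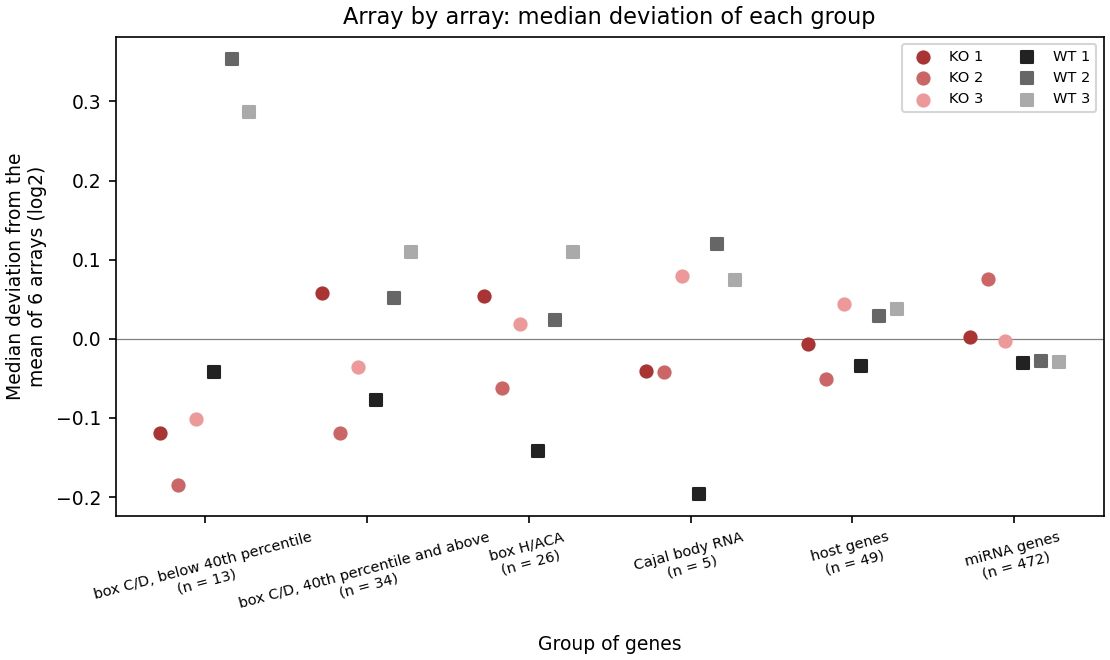
Median deviation of each gene group from the mean of the 6 arrays (log2), with 1 point per array, for box C/D genes below and above the 40th percentile of level, box H/ACA genes, Cajal body RNA genes, 49 host genes and 472 miRNA genes. For the 13 dim box C/D genes wild-type replicates 2 and 3 stand at 0.35 and 0.29 and the other 4 arrays below 0.

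Host genes were found for 74 of the 78 genes as the RefSeq gene whose span holds the small RNA, without use of strand, and 63 had a host with a probe set of its own (49 hosts). For Snord13, Snord118, Snord89 and Scarna2 no span was found. The sign of the difference was the same for member and host in 34 of 63 pairs, in 24 of 36 box C/D pairs and in 9 of 24 box H/ACA pairs. Host differences ran from -0.35 to 0.28, with a median of -0.011. The hosts had a median within-group SD of 0.083. Among the 49 hosts 2, Rpl37 and Snhg4, had an unadjusted p under 0.05 (limma), against 8.27% of all probe sets, and 0 passed after adjustment. The member lay below its host in 37 of the 63 pairs, with a median gap (member less host) of -0.046. This held in 25 of 36 box C/D pairs (median -0.078) and in 10 of 24 box H/ACA pairs (median 0.094). The next 3 examples had an unadjusted p under 0.05 (limma) and lower means, so a gap below a host close to 0 follows from their choice. Snord58b was at -0.60 with Rpl17 at -0.080, Snord19 at -0.55 with Gnl3 at -0.0040, and Snord16a at -0.39 with Rpl4 at -0.011. Snord72 and Rpl37 lay together, at -0.44 and -0.35, and Snord43 and Rpl3 were at 0.30 and 0.28. The value of Rpl3 was 0.063 as the mean of all its single-gene probe sets and 0.074 without wild-type replicate 1. The host probe sets named here differed widely in mean level. They were at 5.61 for Rpl17, 5.78 for Rpl37, 7.78 for Gnl3, 9.55 for Rpl3 and 12.13 for Rpl4, and Snord72 itself was at 2.75. How well each of them reads its host's RNA was not tested.

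RNAs cut from the same host did not always differ in the same direction between the groups, by values that did not pass the test. Of 11 hosts with more than 1 member here, holding 25 members in all, 5 had members with differences of opposite sign. In Snhg12, whose start region is shown above, Snora61, Snora44 and Snora16a were at 0.27, 0.13 and 0.12 and Snord99 was at -0.18, with the host at -0.11. Snord99 was at 9.83, 9.16 and 9.14 against 9.56, 9.59 and 9.52, so its lower mean rested on 2 of 3 arrays. In Rpl3, Snord83b was at -0.28 beside 0.30 for Snord43. In Gnl3, Snord69 was at -0.024 beside -0.55 for Snord19, and in 2410006H16Rik, Snord49a and Snord65 were at -0.25 and -0.19 beside 0.048 for Snord49b. Snora73a and Snora73b of Snhg3, near-identical copies whose signals may mix, differed from each other by 0.0095, and their host was at -0.27 (limma, adjusted p = 0.666).

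**Figure D5:**
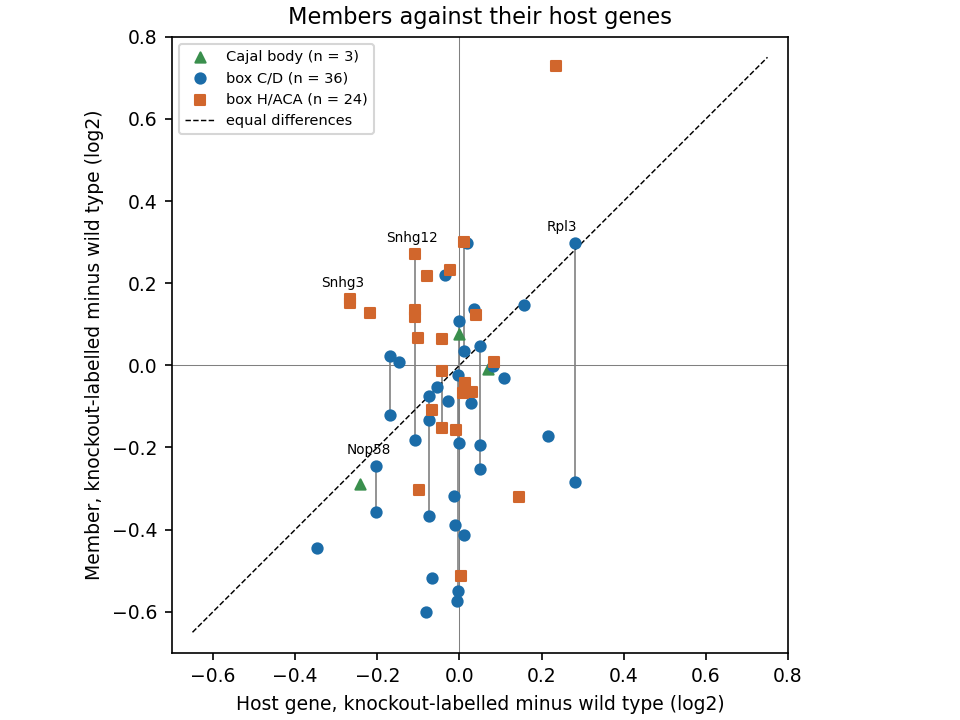
Difference of each member (vertical axis) against that of its host gene (horizontal axis), both in log2 units, for 63 pairs by class; grey lines join members of the same host and the dashed line marks equal differences. Members spread from -0.60 to 0.73, while hosts lie between -0.35 and 0.28.

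By kind of host, members in ribosomal protein genes had lower means in 13 of 18 cases, with a median of -0.10, and members in non-coding hosts in 7 of 17, with a median of 0.0091. Members in other protein-coding hosts had lower means in 24 of 39, with a median of -0.044. The difference between these kinds was not tested, and the first holds more box C/D genes (12 of 18) than the second (9 of 17).

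Of 55 protein-coding genes with a probe set in 6 lists of factors that bind, assemble or use these RNAs, 14 had a higher and 41 a lower mean, where 53.1% of all genes had a lower mean. Their median difference was -0.035. All bright probe sets had a median of -0.016 and a lower mean in 55.3%. Bins of level with median levels from 6.90 to 9.65 had median differences of -0.046 to -0.027, so probe sets at such levels leaned lower in general. At an unadjusted p under 0.05 (limma) 0 of the 55 genes were higher and 1, Gemin2, was lower, against 3.8% and 2.71% of all genes, and 0 passed after adjustment. Among box C/D core proteins Nop58 was at -0.20, Nop56 at -0.074 and Snu13 at 0.036. Nop58 ranged from -0.36 without wild-type replicate 1 to -0.062 without knockout-labelled replicate 1. Of the 4 box H/ACA core proteins, Nop10 was at 0.15, Gar1 at 0.061, Nhp2 at -0.025 and the pseudouridine synthase Dkc1 at -0.010. Assembly factors had 9 of 12 lower means, with Znhit6 at -0.13. Their median deviations were -0.017, -0.036 and -0.024 on the knockout-labelled and 0.0026, 0.036 and 0.017 on the wild-type arrays. These did not overlap, while those of the other factor lists did. Of 9 Cajal body and scaRNP genes 7 had lower means. Gemin2, a partner of the SMN protein in assembling spliceosomal particles, was at 5.17 ± 0.18 against 5.47 ± 0.055 (SD, n = 3), a difference of -0.29 (limma, adjusted p = 0.58). Processing and turnover genes had 7 of 10 lower means, with the exosome nuclease Dis3 at -0.17. Of 17 rRNA processing genes 14 had lower means, with the polymerase factor Rrn3 at -0.16 and a list median of -0.017. The 17 non-coding host genes had 10 higher means, with Snhg4 the member past an unadjusted p of 0.05.

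Probe sets that several genes share were not counted among the members. There were 46 that named a small nucleolar or Cajal body RNA, and 16 of them were assigned to Snord116 copies, the imprinted neuronal box C/D RNAs of the Prader-Willi region. These 16 held identical values on every array, so they are 1 measurement, at 13.06, 13.12 and 13.14 on the knockout-labelled and 13.05, 13.11 and 13.27 on the wild-type arrays. The groups overlapped, and the difference of -0.037 had a 95% interval of -0.26 to 0.18. The other 30 had 20 lower and 10 higher means, with a median of -0.030, and 1 in each direction at an unadjusted p under 0.05 (limma; 0 after adjustment). Of the genes with 2 probe sets, both of Snora19 held identical values, those of Snora33 differed in level (11.94 and 4.98) with differences of -0.066 and -0.079, and those of Scarna17 had differences of -0.048 and -0.16.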

How the data were processed

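The values the authors deposited are on the log2 scale, 1 for each probe set and array, and were made with RMA (background correction, normalization between arrays, summary of probes), per the submitters' processing notes; version and annotation are not given in the sources used here. RMA removes shifts shared by most probe sets and compresses dim ones. All 41345 probe sets were fitted in R 4.3.3 with the limma package, version 3.58.1, with statmod 1.5.0 for its robust option (lmFit, eBayes, 6 arrays, no covariates, prior of 2.21 degrees of freedom) and adjusted together with Benjamini-Hochberg. The fit was tested on simulated data. There were 0 further columns of sample values. The platform annotation gave 23521 single-gene probe sets, and symbols were updated by Entrez identifier through a RefSeq table (GRCm38.p6), which matched 23328 of them and all 78 members. That table holds no strand, so hosts were taken by span alone, the longest with a probe set where several fit, although the design asked for the same strand. For 6 genes several spans fit, such as Mcmdc2 and Snhg6 for Snord87.

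Members and lists were chosen with earlier results of these data known. The text names, in each class, the 4 genes with the highest mean, up to 3 with the smallest p in each direction, the 2 with the largest and the 1 with the smallest within-group SD, their hosts, and list genes at an unadjusted p under 0.05 or else with the smallest p. Further genes were named after their values were seen, such as all those at an unadjusted p under 0.05, those discussed by host and the core proteins. A probe set is called dim where its mean falls under the 40th percentile. Arrays were not paired. The number of arrays limits the precision.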

Additional observations from a re-analysis of the deposited data

How the results depend on the processing

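No gene of the 78 passed the adjusted threshold (limma) under any alternative run or with any array left out. The cause of the changes below was not tested, except that without dim probe sets fewer genes are tested. Without dim probe sets 4 box C/D genes and 5 of all genes were lower at an unadjusted p under 0.05, and 21 box C/D genes had a lower mean. Genes higher at that p numbered 2 with the replicate block, with trend and robust variances, with array weights, and with knockout-labelled replicate 2 and wild-type replicate 1 both left out, an alternative chosen after seeing the data. Same-numbered arrays share only a number: their deviations correlated at 0.086, -0.033 and 0.039, and the block left 8 box C/D genes lower at that p. With 1 array left out, box C/D genes lower at that p ranged from 3 to 11, all genes lower from 4 to 14 and higher from 1 to 4, and box C/D genes with a lower mean from 26 to 34. Class medians then ranged from -0.18 to -0.053 for box C/D, -0.036 to 0.094 for box H/ACA and -0.17 to 0.067 for Cajal body genes.

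Among the genes named by the rule alone, and not those named with their values known, 11 of 28 members and 10 of 28 other genes changed sign with 1 array left out. Their log2 differences then ranged as follows: Atg16l1 (-0.022 to 0.021), Cct6a (-0.029 to 0.039), Gnl3 (-0.088 to 0.047), Ipo7 (-0.051 to 0.025), Ncl (-0.062 to 0.056), Nop53 (-0.017 to 0.072), Rpl17 (-0.12 to 0.0028), Rpl32 (-0.029 to 0.11), Rps12 (-0.095 to 0.12), Rps3a1 (-0.13 to 0.014), Scarna10 (-0.091 to 0.086), Scarna17 (-0.19 to 0.067), Scarna2 (-0.075 to 0.083), Scarna6 (-0.17 to 0.28), Snora16a (-0.035 to 0.36), Snora21 (-0.24 to 0.0093), Snora33 (-0.198 to 0.0074), Snord1b (-0.48 to 0.18), Snord49b (-0.066 to 0.14), Snord71 (-0.29 to 0.24), Snord89 (-0.068 to 0.081). Signs also turned with renewed quantile normalization in Atg16l1 (0.036), Gnl3 (0.039), Ipo7 (0.012), Snord71 (0.031). They turned with cyclic loess in Atg16l1 (0.038), Gnl3 (0.036), Ipo7 (0.023), Snord71 (0.033). They turned with array weights in Cct6a (-0.0063), Rps12 (-0.034), Scarna2 (-0.004). They turned with the mean of all single-gene probe sets in Cct6a (-0.062). They turned with both named arrays left out in Cct6a (-0.0204), Rps12 (-0.077), Scarna10 (0.12), Scarna2 (-0.077), Scarna6 (-0.14), Snord89 (-0.082).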
